A study of Mus musculus with 22 samples.

Results

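The mouse genes described here encode the integrins and other surface molecules by which leukocytes hold to vessels, matrix and each other. Their 31 members were chosen by symbol: 16 integrin alpha chains, 8 integrin beta chains, the selectin ligand Selplg, 5 adhesion molecules of the immunoglobulin superfamily and the hyaluronan receptor Cd44. Each symbol was matched to 1 Ensembl gene of the deposited tables, so that 31 of 55487 genes are members. RNA came from splenic cells of wild type male C57BL/6 mice, in 4 groups: 6 libraries of macrophages given ox-LDL, the oxidised form of low-density lipoprotein, for 24 hours at 50 µg/mL, 5 of macrophages with vehicle, 5 of monocytes with ox-LDL at that dose and time, and 6 of monocytes with vehicle. The macrophages were monocytes kept with phorbol myristate acetate (PMA, an activator of protein kinase C, 200 ng/mL for 5 days), and the monocytes had no such step, so macrophages carry PMA and time in culture as well as their cell type. The labels do not say which libraries share mice or cultures, so the spread behind each p-value is that between libraries and may be technical. Libraries held 37330389 to 50257111 counts, and the ranges of the 4 groups overlapped.

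An integrin is a pair of an alpha and a beta chain, and the pair decides what it binds: the beta 2 integrins of leukocytes bind ICAMs and complement, beta 1 and alpha v integrins bind matrix proteins such as fibronectin, laminin and vitronectin, and beta 7 pairs with alpha 4 or alpha E. PSGL-1, encoded by Selplg, tethers rolling leukocytes to selectins on the vessel wall. In atherosclerosis, monocytes use these molecules to enter the artery wall, where they become macrophages and meet oxidised lipoprotein.

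Levels are given as FPKM computed from the deposited counts, with edgeR's TMM scaling of library size over all 22 libraries and the deposited gene length, so that genes can be set side by side. Macrophage libraries carried a summed level of 27780 to 39460 CPM of 13 macrophage markers, against 3252 to 7978 CPM in monocyte libraries. The summed level of 10 monocyte markers did not run the other way. It was 2626 to 6687 CPM in macrophage libraries and 1204 to 3392 CPM in monocyte libraries. Most of the sum in macrophages was Csf1r, which both cell types use, at 2419 to 5685 CPM against 535 to 1203 CPM in monocytes. Marker by marker, 6 of the 10 were lower in macrophages in each treatment at an adjusted p under 0.05 in the comparisons below. With ox-LDL 1 was higher, and with vehicle 4 were. Over all genes tested, 35% and 35.1% were lower, and 30.3% and 28.5% higher, with ox-LDL and with vehicle. Monocyte libraries also held genes of other cells. Ccr7, a marker of mature dendritic cells, stood at 0.0235 to 4.54 CPM in macrophages and 5125 to 8312 CPM in monocytes, and markers of neutrophils, erythroid, B, T and NK cells were also present in monocyte libraries. Within each cell type 4 libraries stood apart on the first principal component of genes other than members: monocyte libraries 10 and 11 with ox-LDL and 5 and 6 with vehicle, with 29820 to 45590 CPM of neutrophil markers against 4808 to 5908 CPM in the other 7, and macrophage libraries I and J with ox-LDL and C and D with vehicle. Both splits cross the treatment. The names monocyte and macrophage are used below as labelled, and in such bulk RNA fewer cells of a type and less RNA per cell cannot be told apart.

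The highest members were beta chains and PSGL-1, in a different order in each cell type. Itgb5, the beta 5 chain that pairs with alpha v to bind vitronectin, led in macrophages. It stood at 368, 397 and 548 FPKM (lowest, median and highest of 6) in macrophages with ox-LDL and at 519, 492, 452, 540 and 748 FPKM in macrophages with vehicle, against 130, 117, 122, 84.8 and 77.4 FPKM in monocytes with ox-LDL and 67.7, 111 and 133 FPKM (lowest, median and highest of 6) in monocytes with vehicle. No monocyte library reached the lowest macrophage library. Selplg had the reverse pattern and led in monocytes. It stood at 60.3, 79.5 and 105 FPKM in macrophages with ox-LDL and at 84.6, 87.2, 102, 108 and 86.9 FPKM in macrophages with vehicle, against 507, 451, 520, 377 and 428 FPKM in monocytes with ox-LDL and 416, 484 and 532 FPKM in monocytes with vehicle. Every monocyte library was thus above every macrophage library for Selplg.

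Itgb2, the common beta chain of the leukocyte integrins, and Itgb1, that of most matrix receptors, held ranks 2 and 3 in each of the 4 groups. Itgb2 stood at 355, 359 and 424 FPKM in macrophages with ox-LDL and at 338, 345, 375, 399 and 336 FPKM in macrophages with vehicle, against 207, 232, 226, 437 and 406 FPKM in monocytes with ox-LDL and 173, 195 and 432 FPKM in monocytes with vehicle. The monocyte libraries that stood apart were high in Itgb2 (355 to 437 FPKM in 4 libraries, against 173 to 232 FPKM in the other 7). Itgb1 stood at 142, 152 and 166 FPKM in macrophages with ox-LDL and at 133, 148, 152, 140 and 127 FPKM in macrophages with vehicle, against 216, 186, 211, 149 and 159 FPKM in monocytes with ox-LDL and 143, 175 and 214 FPKM in monocytes with vehicle, and all 4 ranges overlapped one another. Cd44, which binds the matrix sugar hyaluronan, and Icam1, the ligand of LFA-1 on the opposite cell, completed the top 5 in macrophages and in monocytes. Cd44 stood at 48.1, 54.9 and 61.9 FPKM in macrophages with ox-LDL and at 66.8, 65.2, 59.7, 64.3 and 61.2 FPKM in macrophages with vehicle, against 26.4, 34.5, 25.2, 48.8 and 55.2 FPKM in monocytes with ox-LDL and 28.3, 41.2 and 58.2 FPKM in monocytes with vehicle. Icam1 stood at 12.3, 22.1 and 24.9 FPKM in macrophages with ox-LDL and at 24.5, 21.3, 20.2, 20.8 and 23.2 FPKM in macrophages with vehicle, against 108, 102, 104, 75.5 and 78.5 FPKM in monocytes with ox-LDL and 79.7, 103.5 and 117 FPKM in monocytes with vehicle. Icam1 was higher in every monocyte library than in any macrophage library, while the Cd44 ranges of macrophages and monocytes with ox-LDL overlapped.

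**Figure D1:**
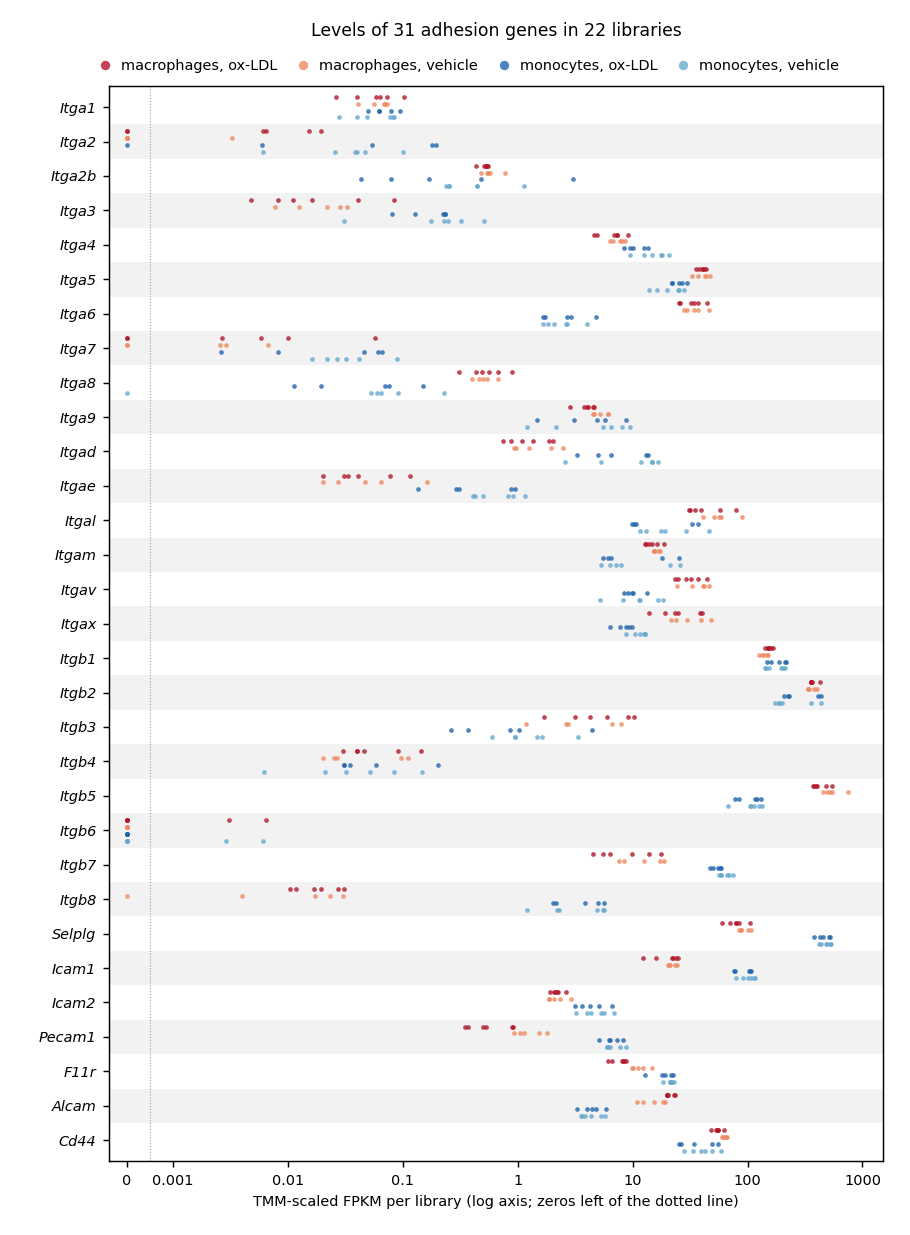
TMM-scaled FPKM of the 31 adhesion genes (rows, in order of role) in each of the 22 libraries, on a log axis, with zeros drawn left of the dotted line; each point is 1 library, and colours mark the 4 groups. Macrophage and monocyte points lie apart for Itga6, Itgb5, Itgb7, Itgb8, Selplg, Icam1 and Pecam1, while the ox-LDL and vehicle points of a cell type overlap for most genes.

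Macrophages and monocytes were compared within each treatment, to ask which adhesion genes go with the cell type. With vehicle, 28 members passed the filter on low counts in edgeR's quasi-likelihood test, and 10 were higher and 12 lower in macrophages at a Benjamini-Hochberg adjusted p under 0.05 over all 16288 genes tested. Of those genes, 63.7% were called, 28.5% higher and 35.1% lower. With ox-LDL, 10 were again higher and 12 lower of 28, where 65.4% of 15825 genes were called, 30.3% higher and 35% lower. In all, 78.6% of the members tested were called in each treatment. An unadjusted p under 0.05 was met by 22 members in each treatment, against 68.3% of all genes with ox-LDL and 66.9% with vehicle. The groups did not overlap in 16 members with ox-LDL and 18 with vehicle, against 49.4% and 49% of all genes. Itga3, Itgae and Itgb8 passed the filter through their monocyte counts only, and with ox-LDL Itga8 and Itgb4 through their macrophage counts only, so a difference in them is partly built in. The 10 higher members and the 12 lower ones were the same genes with ox-LDL and with vehicle. These comparisons share no library, but the labels do not say whether they share mice or cultures. The share of all genes called the same way in both treatments was not counted. The median log2 fold change of the members tested was -0.26 with ox-LDL and -0.03 with vehicle, against -0.07 and -0.09 over all genes tested.

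Among the alpha chains, 6 were higher and 4 lower of 14 tested. Itga6, a laminin receptor chain, was the most increased: it averaged 33.1 ± 7.09 FPKM in macrophages with ox-LDL (SD, n = 6) and 2.75 ± 1.26 FPKM in monocytes with ox-LDL (n = 5), or 3.56 ± 0.28 on the log2 scale (SE; adjusted p = 1.59e-07), and 35.1 ± 7.33 FPKM in macrophages with vehicle (n = 5) and 2.49 ± 0.861 FPKM in monocytes with vehicle (n = 6), or 3.80 ± 0.23. Itgav, the alpha chain of the vitronectin receptors, rose by 1.61 ± 0.18 with ox-LDL and 1.63 ± 0.28 with vehicle on the log2 scale. Its mean was 31.8 FPKM in macrophages with ox-LDL against 10.2 FPKM in monocytes with ox-LDL, and 37.2 FPKM in macrophages with vehicle against 11.9 FPKM in monocytes with vehicle. Itgax, the CD11c chain used as a marker of dendritic cells and some macrophages, rose by 1.63 ± 0.25 with ox-LDL and 1.47 ± 0.20 with vehicle. Itga5, the fibronectin receptor chain, Itgal, the CD11a chain of LFA-1, and Itga8, an RGD-binding chain at a mean of 0.514 to 0.562 FPKM in macrophages, were the other 3 higher ones. The call for Itgal with ox-LDL (1.15 ± 0.40, adjusted p = 0.023) was lost without monocyte library 7, 8 or 9 or without macrophage library K, at adjusted p of 0.0558, 0.0544, 0.0595 and 0.0556. Without monocyte libraries 10 and 11, which stood apart, it was 2.09 (adjusted p = 6.59e-05).

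The 4 lower alpha chains were Itgad, Itga4, Itga3 and Itgae. Itgad, the CD11d chain, was at 1.33 ± 0.527 FPKM in macrophages with ox-LDL and 8.31 ± 4.75 FPKM in monocytes with ox-LDL, and at 1.52 ± 0.685 FPKM in macrophages with vehicle and 11.0 ± 5.70 FPKM in monocytes with vehicle, log2 fold changes of -2.68 ± 0.38 and -2.87 ± 0.46. Itga4, which pairs with beta 1 or beta 7 to bind VCAM-1, fell by 0.74 ± 0.18 with ox-LDL and by 1.06 ± 0.18 with vehicle. Itga3, a laminin receptor chain, and Itgae, the CD103 chain that binds E-cadherin, fell from low levels: no group mean of either passed 1 FPKM. Itgae overlaps Haspin on the opposite strand, with a median of 149 counts for Haspin and 31 for Itgae, and the strand setting of the counting is not given in the sources used here. Itgam, the CD11b chain of Mac-1, and Itga9, which binds tenascin and osteopontin, were not called in all libraries (adjusted p of 0.569 and 0.434 with ox-LDL, 0.416 and 0.88 with vehicle). Without the 4 monocyte libraries that stood apart, Itgam was higher in macrophages by 1.25 with ox-LDL and 1.22 with vehicle (adjusted p of 4.7e-06 and 1.12e-06) and Itga9 lower by 0.76 and 0.51 (adjusted p of 0.00273 and 0.0116). In those 4 libraries Itgam stood at 17.9 to 25.9 FPKM and Itga9 at 1.20 to 3.06 FPKM, against 5.32 to 7.92 FPKM and 4.94 to 9.53 FPKM in the other 7 monocyte libraries. Itga1 and Itga2b did not pass the threshold in either comparison. Itga2b, at -0.60 ± 0.81 with ox-LDL and 0.32 ± 0.38 with vehicle, was called higher in macrophages without monocyte library 10 with ox-LDL (1.37, adjusted p = 0.0322) and without monocyte library 1 with vehicle (0.82, adjusted p = 0.0112). Itga2 and Itga7 were too low to be tested.

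**Figure D2:**
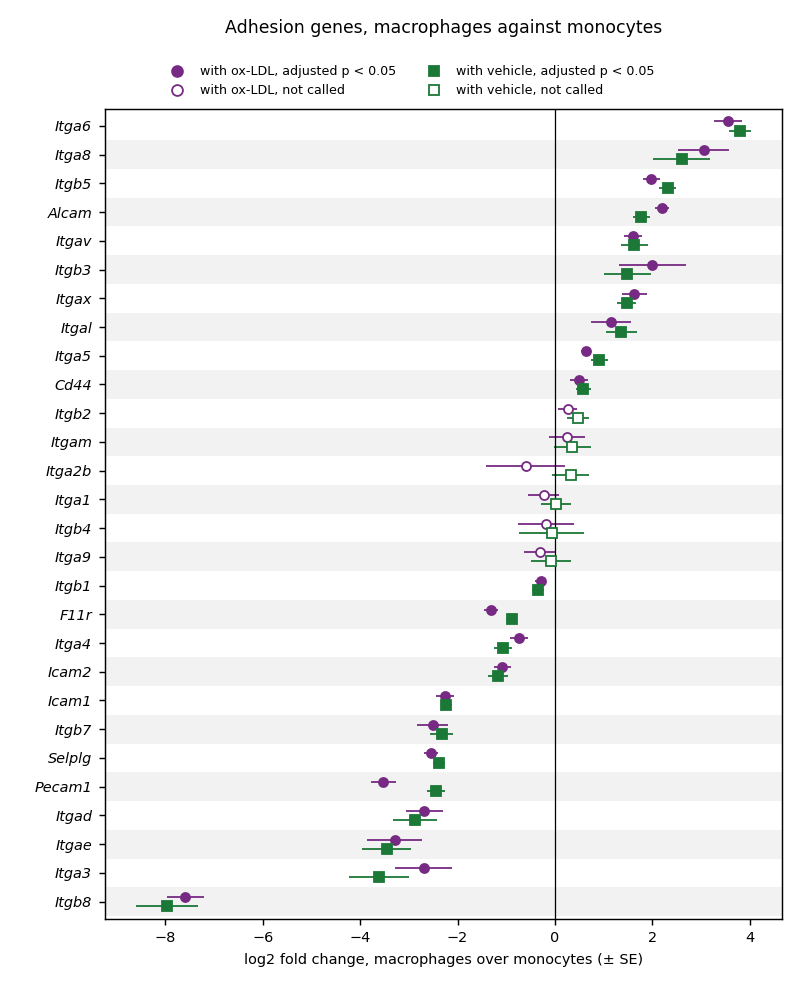
Log2 fold changes of 28 adhesion genes, macrophages over monocytes, with ox-LDL (circles) and with vehicle (squares), with standard errors as bars; filled symbols have an adjusted p under 0.05 over all genes tested. The range runs from -7.97 for Itgb8 to 3.80 for Itga6, and the 2 treatments lie on the same side of 0 for each filled symbol.

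Itgal, Itgam, Itgax and Itgad are alternative partners of the beta 2 chain and lie in 1 stretch of chromosome 7 on the plus strand, chr7:127296260-128223816 in GRCm38. Itgam (start 128062640), Itgax (start 128129547) and Itgad (start 128154376) follow each other there. Their summed level was 69.3 to 112.7 FPKM in macrophages with ox-LDL and 100.8 to 128.6 FPKM in macrophages with vehicle, against 29.3 to 76.2 FPKM in monocytes with ox-LDL and 44.7 to 89.1 FPKM in monocytes with vehicle. Over all libraries, Itgad alone differed in share between the cell types at an adjusted p under 0.05. It gave 1.62% of the sum in macrophages with ox-LDL and 20.7% in monocytes with ox-LDL, and 1.44% in macrophages with vehicle and 21.7% in monocytes with vehicle, with no overlap in either case (exact permutation test, 2-sided, p = 0.00433 each, the smallest that 6 against 5 libraries allow; adjusted p = 0.0346 over 16 tests of shares). The share of Itgad was low in the monocyte libraries that stood apart (4.18 to 6.63%), and in the remaining libraries it averaged 1.71% in 4 macrophages with ox-LDL against 30.6% in 3 monocytes with ox-LDL, and 1.70% in 3 macrophages with vehicle against 30.0% in 4 monocytes with vehicle. Itgal gave 50.3% in macrophages with ox-LDL and 37.8% in monocytes with ox-LDL, and 53.7% in macrophages with vehicle and 37.4% in monocytes with vehicle. These differences did not pass the adjustment (exact permutation test, adjusted p of 0.277 and 0.139). In the libraries that did not stand apart, Itgal averaged 57.3% in macrophages with ox-LDL against 29.6% in monocytes with ox-LDL. With vehicle it averaged 60.6% in such macrophages against 31.3% in such monocytes. Shares in those libraries alone were not tested. Itgb2 exceeded the sum of its partners in each group, at 4.27 ± 0.754 times the sum in macrophages with ox-LDL, 3.32 ± 0.430 in macrophages with vehicle, 6.25 ± 0.864 in monocytes with ox-LDL and 4.35 ± 0.815 in monocytes with vehicle.

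**Figure D3:**
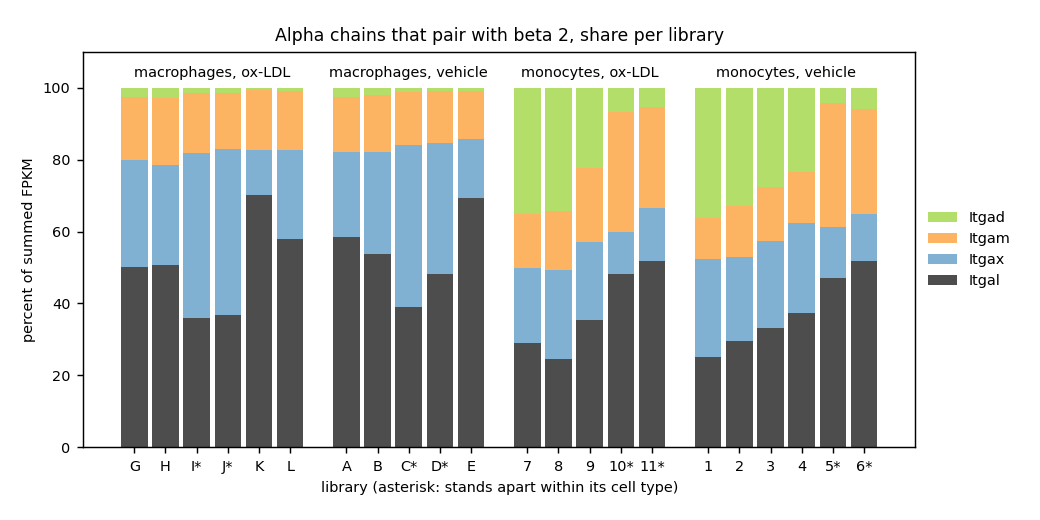
Share of Itgal, Itgax, Itgam and Itgad in their summed FPKM, as stacked bars that add to 100% for each of the 22 libraries; asterisks mark the libraries that stand apart within their cell type. Itgad averages 1.62% and 1.44% in macrophages with ox-LDL and vehicle, against 20.7% and 21.7% in monocytes with ox-LDL and vehicle.

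Of these 4 genes, RefSeq promoter windows were held for Itgam and Itgax, and that of Itgax contains a match to TGANTCA. This pattern was searched to find sites of AP-1, a transcription factor known to be activated by PMA. The window of 300 bases (250 before and 50 after the RefSeq start, GRCm38.p6, plus strand, chr7:128129300-128129599) is printed with the TGANTCA match in capitals, 56 bases before the start. It was chosen after the values were seen.
Itgax: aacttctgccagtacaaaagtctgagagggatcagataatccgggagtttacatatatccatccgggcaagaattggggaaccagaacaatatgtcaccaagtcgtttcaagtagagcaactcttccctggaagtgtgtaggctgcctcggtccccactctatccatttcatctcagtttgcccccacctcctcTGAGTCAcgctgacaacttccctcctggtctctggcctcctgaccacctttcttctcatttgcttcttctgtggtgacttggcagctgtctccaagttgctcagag
RefSeq windows were held for 20 of the 31 members, and both strands were searched. TGANTCA was found in 4 of the 20 (F11r, Itga3, Itga9 and Itgax), against 8.97% of 27025 genes. The Itga3 match reads TGAATCA and lies in the window chr11:95069149-95069448, inside the gene. The window at the start of Itga3, chr11:95076665-95076964, held no match. The Itga9 window, chr9:118711442-118711741, also lies inside its gene, which starts at 118606690. GAGGAA, the core bound by the myeloid factor PU.1, was found in 11 of the 20, 55.0%, against 31.25% of genes. Of the 4 members with TGANTCA, Itgax was higher in macrophages, F11r and Itga3 were lower, and Itga9 was not called. Itga3 passed the filter through its monocyte counts only. A link between the motif and these levels was not tested.

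Among the beta chains, Itgb5 and Itgb3 were higher in macrophages and Itgb8, Itgb7 and Itgb1 lower, of 7 tested. Itgb5 rose by 1.98 ± 0.17 with ox-LDL and 2.32 ± 0.18 with vehicle (adjusted p of 3.22e-07 and 9.18e-08). Itgb3, the other beta chain of the vitronectin receptors, averaged 5.75 ± 3.36 FPKM in macrophages with ox-LDL and 1.40 ± 1.74 FPKM in monocytes with ox-LDL, a log2 fold change of 2.00 ± 0.68 (adjusted p = 0.0201), and 4.21 ± 2.88 FPKM in macrophages with vehicle and 1.49 ± 0.979 FPKM in monocytes with vehicle, 1.48 ± 0.49 (adjusted p = 0.016). Macrophage libraries C, D, I and J held 6.58 to 10.2 FPKM of Itgb3, against 1.17 to 5.99 FPKM in the other 7, and without those 4 the call was lost in each treatment (1.40 with ox-LDL, adjusted p = 0.108; 0.58 with vehicle, adjusted p = 0.317), as it was with vehicle without library C alone (adjusted p = 0.0565). With ox-LDL the change was 3.15 without monocyte library 10 (adjusted p = 0.00033) and 3.31 without libraries 10 and 11 (adjusted p = 0.000589), and library 10 held 4.46 FPKM of Itgb3 against 0.265 to 1.03 FPKM in the other monocytes with ox-LDL. Itgb8, which pairs with alpha v to release active TGF-beta, was at 0.0195 ± 0.00821 FPKM in macrophages with ox-LDL and 3.74 ± 1.64 FPKM in monocytes with ox-LDL, and at 0.0149 ± 0.0127 FPKM in macrophages with vehicle and 3.64 ± 1.95 FPKM in monocytes with vehicle. Its log2 fold changes of -7.59 ± 0.38 and -7.97 ± 0.64 were the lowest of the members. Itgb7 fell by 2.51 ± 0.31 with ox-LDL and by 2.33 ± 0.23 with vehicle, to 9.67 FPKM in macrophages with ox-LDL against 54.0 FPKM in monocytes with ox-LDL, and 12.9 FPKM in macrophages with vehicle against 64.0 FPKM in monocytes with vehicle.

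Itgb1 was lower by 0.29 ± 0.11 with ox-LDL and 0.35 ± 0.13 with vehicle (adjusted p of 0.0377 and 0.0297), but the call was lost when some single libraries were left out. With ox-LDL it was lost without macrophage library G, H, K or L or monocyte library 7, 8 or 9 (adjusted p of 0.0624 to 0.0876), and with vehicle without macrophage library A, C, D or E or monocyte library 2, 3 or 4 (adjusted p of 0.0524 to 0.0933). The call was also lost with no filter on low counts (adjusted p of 0.112 with ox-LDL and 0.156 with vehicle). With ox-LDL it was lost in 1 fit over all 4 groups (adjusted p = 0.062). With vehicle it was lost without the macrophage libraries that stood apart (adjusted p = 0.0936). Without the monocyte libraries that stood apart, Itgb1 was lower by 0.46 with ox-LDL and by 0.47 with vehicle (adjusted p of 0.000582 and 0.0031). Itgb2 was not called in all libraries (0.26 ± 0.20 with ox-LDL and 0.47 ± 0.23 with vehicle, adjusted p of 0.258 and 0.0885). Without monocyte libraries 5, 6, 10 and 11 it was higher in macrophages by 0.68 with ox-LDL and 0.91 with vehicle (adjusted p of 5.49e-05 and 1.95e-06), and with vehicle also without library 5 or 6 alone (adjusted p of 0.0362 and 0.00638). Itgb4, the beta chain of hemidesmosomes, stayed under 0.21 FPKM in every library and was not called, and Itgb6 had at most 0.00653 FPKM and was not tested. Among the beta chains that can pair with alpha v (Itgb1, Itgb3, Itgb5, Itgb6 and Itgb8), Itgb5 gave 72.6 ± 3.75% of the summed level in macrophages with ox-LDL and 35.7 ± 2.13% in monocytes with ox-LDL, and 78.8 ± 4.21% in macrophages with vehicle and 37.5 ± 5.45% in monocytes with vehicle. Most of the rest was Itgb1, at 26.4% and 20.6% in macrophages with ox-LDL and vehicle, against 62.5% and 60.8% in monocytes with ox-LDL and vehicle.

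Outside the integrins, Alcam and Cd44 were higher in macrophages and Selplg, Icam1, Icam2, Pecam1 and F11r lower. Alcam, which binds CD6 and itself, rose by 2.20 ± 0.14 with ox-LDL and 1.77 ± 0.18 with vehicle. Cd44 rose by 0.49 ± 0.19 with ox-LDL (adjusted p = 0.0361) and 0.58 ± 0.16 with vehicle (adjusted p = 0.00502). With ox-LDL that call was lost without monocyte library 7, 8 or 9 or macrophage library G, H, J, K or L (adjusted p of 0.0502 to 0.103), without macrophage libraries I and J together (0.55, adjusted p = 0.0527) and when libraries were scaled by total counts alone (adjusted p = 0.0609). Without monocyte libraries 10 and 11, which stood apart, the change was 0.87 (adjusted p = 4.8e-05). Selplg fell by 2.55 ± 0.15 with ox-LDL and by 2.38 ± 0.12 with vehicle, and Icam1 by 2.25 ± 0.18 and 2.23 ± 0.12. Pecam1, the CD31 of endothelial junctions, platelets and leukocytes, fell by 3.52 ± 0.27 with ox-LDL and by 2.44 ± 0.19 with vehicle. Icam2, another ligand of LFA-1, fell by 1.08 ± 0.18 and 1.16 ± 0.21, and F11r, the junctional molecule JAM-A, by 1.31 ± 0.15 and 0.89 ± 0.12. Beside these lower members, 9 of 11 dendritic cell markers tested were called lower in macrophages with ox-LDL and 8 of 11 with vehicle, a list that holds Itgae itself. With ox-LDL, 8 of 9 B, 9 of 10 T and 6 of 6 NK cell markers tested were called lower in macrophages. So were 10 of 10 neutrophil and 9 of 9 erythroid markers. With vehicle the counts were 8 of 9, 9 of 10, 7 of 7, 10 of 10 and 9 of 10, in that order. Over all genes tested, 35% were called lower with ox-LDL and 35.1% with vehicle. The part of RNA of these other cells in the results was not tested.

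Ox-LDL was set against vehicle in macrophages, and there 2 of the 25 members tested were lower and 0 higher, where 1.38% of the 14543 genes tested were called lower and 0.976% higher (2.35% in all). Both were junctional molecules of the immunoglobulin superfamily, F11r and Pecam1. In 6 members the unadjusted p was under 0.05, as in 14.2% of all genes tested, and in 3 the groups did not overlap, as in 3.38% of all. The median log2 fold change of the members tested was -0.18, against 0.00 over all genes tested.

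F11r helps leukocytes through endothelial and epithelial junctions. It stood at 6.16, 8.17 and 8.79 FPKM (lowest, median and highest of 6) in macrophages with ox-LDL, against 9.82, 11.2, 10.1, 12.3 and 14.8 FPKM in macrophages with vehicle. The highest library with ox-LDL lay below the lowest with vehicle. The means were 7.73 ± 1.05 FPKM with ox-LDL (SD, n = 6) and 11.7 ± 2.03 FPKM with vehicle (SD, n = 5). The log2 fold change was -0.59 ± 0.12 (SE; edgeR quasi-likelihood adjusted p = 0.0203). Within libraries I, J, C and D the log2 ratio of the means was -0.44, and within the other 7 it was -0.68. The call was lost without library H with ox-LDL (adjusted p = 0.0503) and without library B or E with vehicle (adjusted p of 0.052 and 0.0554). F11r lies at chr1:171437535-171464603 on the plus strand in GRCm38. Its RefSeq promoter window (GRCm38.p6, chr1:171437311-171437610, plus strand) holds 1 TGANTCA, 109 bases before the start, printed in capitals, and 1 GAGGAA at 140 bases before it.
F11r: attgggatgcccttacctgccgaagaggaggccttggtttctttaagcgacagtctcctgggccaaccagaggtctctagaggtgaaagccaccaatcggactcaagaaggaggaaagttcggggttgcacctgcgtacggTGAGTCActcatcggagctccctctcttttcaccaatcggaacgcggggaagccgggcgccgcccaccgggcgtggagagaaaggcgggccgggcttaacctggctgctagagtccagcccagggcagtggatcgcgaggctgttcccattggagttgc

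Pecam1 stood at 0.347, 0.516 and 0.920 FPKM (lowest, median and highest of 6) in macrophages with ox-LDL, against 1.54, 1.80, 1.05, 1.13 and 0.928 FPKM in macrophages with vehicle. The groups did not overlap, but the highest library with ox-LDL and the lowest with vehicle were close. The means were 0.595 ± 0.256 FPKM with ox-LDL (SD, n = 6) and 1.29 ± 0.366 FPKM with vehicle (SD, n = 5). The log2 fold change was -1.12 ± 0.27 (SE; edgeR quasi-likelihood adjusted p = 0.0469). The log2 ratio of the means was -1.28 within libraries I, J, C and D and -1.09 within the other 7. Leaving out any 1 of the vehicle libraries A to E, or of the ox-LDL libraries I to L, took the adjusted p to 0.0609 to 0.136, and leaving out I, J, C and D together to 0.105. Markers of cell types were counted in the same comparison, where 1.38% of all genes tested were called lower. Of 10 monocyte markers, Ccr2 (-1.20 ± 0.23), Cx3cr1 (-1.58 ± 0.37) and Adgre4 (-1.20 ± 0.27) were lower with ox-LDL and 7 were not called. With vehicle, Cx3cr1 averaged 258 CPM in macrophages and 82.95 CPM in monocytes. Ccr2 averaged 8.74 and 19.86 CPM, and Adgre4 13.27 and 44.55 CPM, in that order. The median log2 fold change of the list was -0.43. Among those not called, Treml4 averaged 64.0 CPM with ox-LDL and 43.5 CPM with vehicle, Ly6c2 1.30 and 1.28 CPM, and Csf1r 3627 and 4486 CPM. The list summed to 2626 to 5333 CPM with ox-LDL against 3633 to 6687 CPM with vehicle. Of 13 macrophage markers, C1qc was lower (-0.40 ± 0.09), while that list summed to 28810 to 39460 CPM with ox-LDL against 27780 to 35030 CPM with vehicle. Of 9 endothelial markers 4 were tested and 0 called, and Cdh5 stood at 0 to 0.0933 CPM with ox-LDL against 0.0475 to 0.221 CPM with vehicle. Of 11 platelet markers 5 were tested and 0 called, with 1 at an unadjusted p under 0.05 (Ppbp, -1.57 ± 0.59, adjusted p = 0.22), and the list summed to 68.3 to 139.7 CPM with ox-LDL against 58.4 to 270.6 CPM with vehicle. Most of that sum was Pf4, at a mean of 94.3 CPM with ox-LDL and 129.4 CPM with vehicle, while Gp1ba averaged 0.0789 CPM with ox-LDL and 0.280 CPM with vehicle, and Gp5 and Gp9 were under 0.1 CPM in every library of both groups. The part of monocyte or platelet RNA in the results was not tested.

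Alcam was the other member whose groups did not overlap, in the other direction. It stood at 19.97, 20.3 and 23.6 FPKM (lowest, median and highest of 6) in macrophages with ox-LDL, against 10.9, 15.2, 19.2, 18.5 and 12.4 FPKM in macrophages with vehicle. The log2 fold change of 0.47 ± 0.13 did not pass the threshold (adjusted p = 0.0868). It passed without library C (adjusted p = 0.042), without the 4 libraries that stood apart (0.65, adjusted p = 0.00819), with DESeq2 (adjusted p = 0.0156) and with no filter on low counts (adjusted p = 0.0439). The log2 ratio of the means was 0.30 within libraries I, J, C and D and 0.65 within the other 7. Its RefSeq window, chr16:52453032-52453331 on the minus strand, holds GAGGAA and not TGANTCA. This window lies inside the gene, which starts at 52454074 in the deposited tables.

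None of the integrin chains was called in macrophages (12 alpha and 6 beta chains tested). Itga9 (-0.42 ± 0.12, adjusted p = 0.107) and Itgb5 (-0.36 ± 0.13, adjusted p = 0.222) had an unadjusted p under 0.05, as did Cd44 (-0.21 ± 0.07, adjusted p = 0.137). Itga9 stood at 3.98 ± 0.624 FPKM with ox-LDL (SD, n = 6) and 5.32 ± 0.782 FPKM with vehicle (SD, n = 5). Itga9 overlaps Gm10157, a pseudogene on the opposite strand with a median of 286 counts against 1617 for Itga9. The matrix receptor chains Itga5 (-0.02 ± 0.09), Itga6 (-0.08 ± 0.15), Itgav (-0.22 ± 0.18) and Itgb1 (0.14 ± 0.07) and the beta 2 integrin chains Itgal (-0.38 ± 0.25), Itgam (-0.09 ± 0.09), Itgax (-0.27 ± 0.27), Itgad (-0.20 ± 0.31) and Itgb2 (0.04 ± 0.07) had adjusted p of 0.376 to 0.954. The other integrin chains tested ran from -0.42 ± 0.35 for Itgb7 to 0.45 ± 0.49 for Itgb3. As a share of the beta 2 partners, Itgam gave 17.0 ± 1.08% with ox-LDL and 14.7 ± 0.963% with vehicle (SD, n = 6 and 5; exact permutation test, 2-sided, p = 0.00866, adjusted p = 0.0462 over 16 tests). The ranges of that share met, at 15.6 to 18.7% with ox-LDL and 13.4 to 15.9% with vehicle. Itgam itself was not higher, at a mean of 14.97 FPKM with ox-LDL and 15.99 FPKM with vehicle. The sum of the beta 2 partners averaged 88.7 FPKM with ox-LDL and 109.2 FPKM with vehicle. Shares of 1 sum depend on each other, so their tests are not independent. Selplg (-0.23 ± 0.12), Icam1 (-0.13 ± 0.15) and Icam2 (-0.01 ± 0.14) had adjusted p of 0.43 to 0.981. Itga2, Itga3, Itga7, Itgae, Itgb6 and Itgb8 were too low in macrophages to be tested, with no library above 0.164 FPKM.

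**Figure D4:**
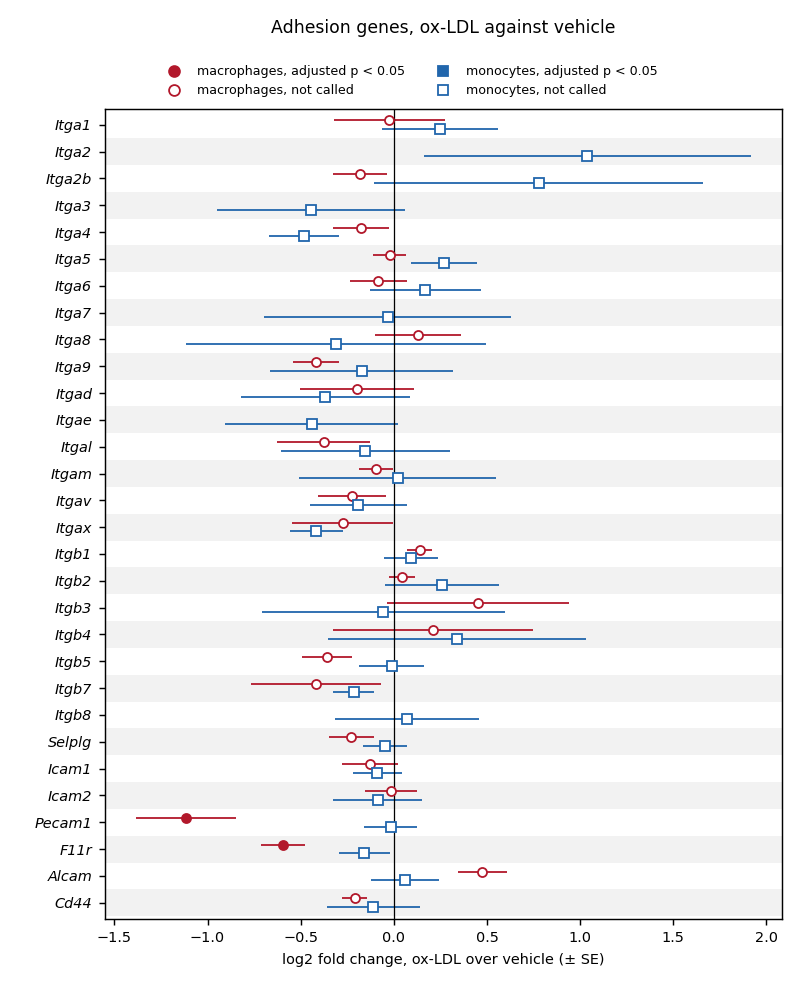
Log2 fold changes of the adhesion genes tested, ox-LDL over vehicle, in macrophages (circles, 25 genes) and in monocytes (squares, 30 genes), with standard errors as bars; filled symbols have an adjusted p under 0.05 over all genes tested. F11r at -0.59 and Pecam1 at -1.12 in macrophages are the 2 filled symbols.

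In monocytes, 0 of the 30 members tested were called with ox-LDL, where 0.0241% of 16575 genes were. DESeq2 also called 0 of the 30. In 2 members the unadjusted p of edgeR's test was under 0.05, as in 10.4% of all genes tested, and in 0 members did the groups not overlap, against 1.39% of all genes. The median log2 fold change of the members was -0.05, against 0.00 over all genes. Itgax had the lowest p. It stood at 7.73, 9.88, 6.39, 8.84 and 9.30 FPKM in monocytes with ox-LDL, against 8.72, 12.05 and 12.9 FPKM (lowest, median and highest of 6) in monocytes with vehicle. That is a log2 fold change of -0.42 ± 0.14 (adjusted p = 0.33). The groups overlapped through library 5 with vehicle and libraries 8, 10 and 11 with ox-LDL, and the log2 ratio of the means was -0.17 within the 4 libraries that stood apart and -0.60 within the other 7. Itga4 stood at 13.7, 9.45, 10.2, 12.6 and 8.51 FPKM with ox-LDL, against 9.48, 16.2 and 20.6 FPKM with vehicle, a log2 fold change of -0.48 ± 0.19 (adjusted p = 0.397). Itgb7, a partner of alpha 4, stood at 55.4, 59.4, 47.1, 58.2 and 49.8 FPKM with ox-LDL, against 56.8, 62.3 and 74.9 FPKM with vehicle, a log2 fold change of -0.22 ± 0.11 (adjusted p = 0.528). These 3 genes were named for the lowest p of the 30 members tested, so a lean in their extremes is partly built in. For each, the lowest library was one with ox-LDL and the highest one with vehicle, and the groups overlapped.

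The other members of the monocyte comparison had adjusted p of 0.646 to 0.993. Those at 10 FPKM or more in a group were Itga5 (0.27 ± 0.18), Itgal (-0.15 ± 0.46), Itgam (0.02 ± 0.53), Itgav (-0.19 ± 0.26), Itgad (-0.37 ± 0.45), Itgb1 (0.09 ± 0.14), Itgb2 (0.26 ± 0.31), Itgb5 (-0.01 ± 0.18), Selplg (-0.05 ± 0.12), Icam1 (-0.09 ± 0.13), F11r (-0.16 ± 0.14) and Cd44 (-0.11 ± 0.25). Among these 12, libraries 5, 6, 10 and 11 did not overlap the other 7 in Itgam, Itgal, Itgad, Itgb2, Itgb5, Icam1 and Cd44. The share of all genes that did so was not counted. The component that set this split held 44.8% of the variance of genes other than members, so such gaps are not particular to these members. Itgad stood at 2.56 to 5.34 FPKM in those 4 libraries against 6.52 to 16.6 FPKM in the other 7, and Itgal at 28.9 to 46.2 FPKM against 9.81 to 19.1 FPKM. Pecam1 and Alcam, at -0.02 ± 0.14 and 0.06 ± 0.18, had adjusted p of 0.983 and 0.948.

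**Figure D5:**
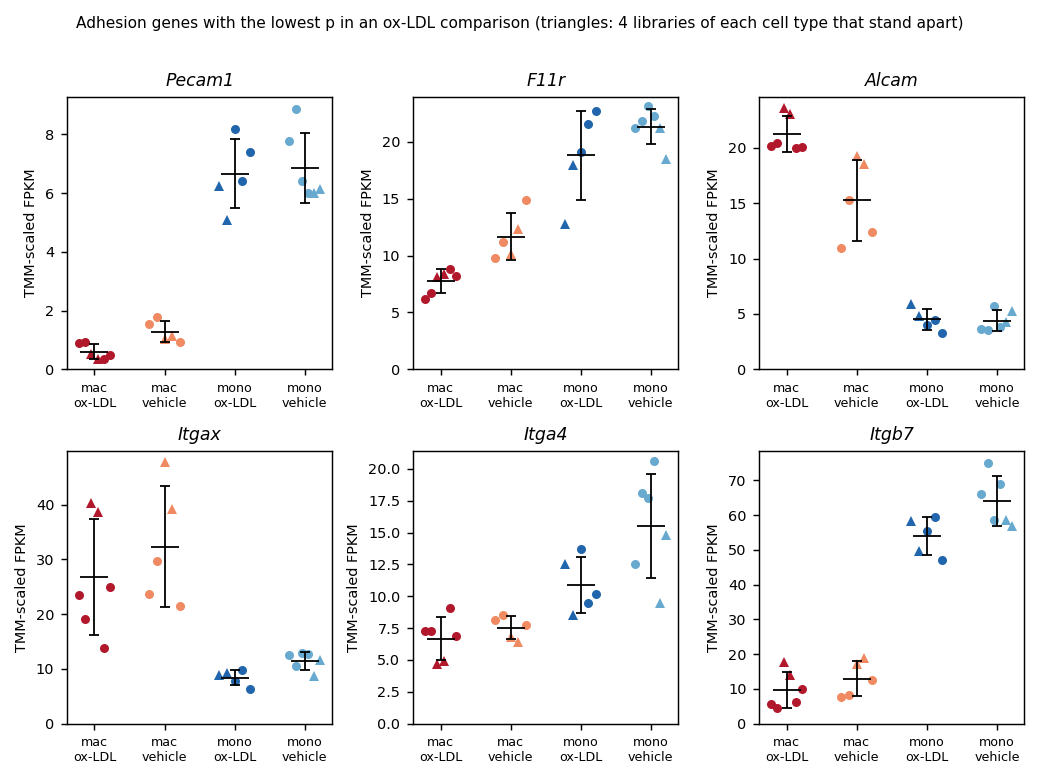
TMM-scaled FPKM of Pecam1, F11r, Alcam, Itgax, Itga4 and Itgb7 in each library of the 4 groups, with the mean and SD as black bars; triangles mark the 4 libraries of each cell type that stand apart. Macrophages with ox-LDL lie below macrophages with vehicle for Pecam1 and F11r and above them for Alcam, while the 2 monocyte groups overlap in all 6 panels.

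The difference of the ox-LDL effects, macrophages minus monocytes, was tested in 1 fit of the 4 groups. Of 30 members tested 0 were called, where 0.063% of 17466 genes were (0.00573% higher and 0.0573% lower), and 2 had an unadjusted p under 0.05, against 7.22% of all genes. These were Pecam1, with a difference of -1.07 ± 0.32 on the log2 scale (adjusted p = 0.37), and F11r, with -0.41 ± 0.19 (adjusted p = 0.667). DESeq2 also called 0 members. The effects on Pecam1 and F11r in macrophages are therefore not shown to differ from those in monocytes. The difference for Alcam was 0.44 ± 0.23 (adjusted p = 0.724).

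Genes that work with these molecules were counted in the same fits. There, 2.35% of all genes tested were called with ox-LDL in macrophages and 0.0241% in monocytes. Of the 39 integrin activation and adaptor genes tested, 0 were called with ox-LDL in macrophages and 0 in monocytes. The 2 with the highest levels were Rap1b, a GTPase that switches integrins on, with -0.06 ± 0.07 in macrophages and 0.21 ± 0.12 in monocytes, and Flna, which links integrins to actin, with 0.19 ± 0.12 and -0.11 ± 0.31. Of the genes that build selectin ligands, St3gal4, a sialyltransferase, was lower with ox-LDL in macrophages, 1 of 10 tested. It averaged 15.1 FPKM with ox-LDL and 19.3 FPKM with vehicle (log2 fold change -0.36 ± 0.08, adjusted p = 0.0258). Among 14 tetraspanins, which organise integrins in the membrane, Tspan33 was lower in macrophages, at 0.259 FPKM with ox-LDL and 0.503 FPKM with vehicle (-0.95 ± 0.19, adjusted p = 0.019). Of the selectins and other vascular adhesion molecules 0 of 15 were called in macrophages and 0 of 24 in monocytes, with Ninj1 (0.15 ± 0.19 and 0.38 ± 0.18) and Cd48 (0.07 ± 0.08 and 0.27 ± 0.14) the highest in level. Of the matrix and soluble ligands 0 of 15 and 0 of 20 were called. The highest of these were Spp1, which encodes osteopontin, at 0.36 ± 0.14 in macrophages and 1.13 ± 0.53 in monocytes, and Thbs1, which encodes thrombospondin 1, at -0.55 ± 0.45 and 0.34 ± 0.58. In monocytes 0 of 11 selectin ligand genes and 0 of 14 tetraspanins were called, the highest in level being the fucosyltransferase Fut4 (-0.16 ± 0.19) and Galnt1 (-0.02 ± 0.19), and Tspan3 (0.14 ± 0.23) and Cd63 (0.37 ± 0.15).

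The same lists were counted between the cell types, with the genes named picked after their values were seen. Over all genes tested, 65.4% were called with ox-LDL and 63.7% with vehicle. Among the matrix and soluble ligands 9 were higher and 4 lower in macrophages with ox-LDL, and 10 higher and 3 lower with vehicle, of 17 tested (76.5% called in each). Spp1 averaged 1521 FPKM in macrophages with ox-LDL and 35.4 FPKM in monocytes with ox-LDL, and 1181 FPKM in macrophages with vehicle and 16.4 FPKM in monocytes with vehicle (log2 fold changes 5.40 ± 0.51 and 6.15 ± 0.41), and Mfge8, the bridge between dying cells and alpha v integrins, rose by 3.57 ± 0.16 and 3.61 ± 0.15. Of the integrin activation genes 12 were higher and 16 lower of 39 with ox-LDL (71.8% called), and 12 higher and 17 lower with vehicle (74.4%). Of the selectin ligand enzymes 7 were higher and 3 lower of 11 in each treatment (90.9%). Fut4 was lower, with log2 fold changes of -4.55 ± 0.15 with ox-LDL and -4.64 ± 0.21 with vehicle, while B4galt1, a galactosyltransferase, rose by 1.56 ± 0.12 and 1.69 ± 0.12. Of the selectins and vascular molecules 8 were higher and 10 lower of 20 with ox-LDL (90%), and 8 higher and 12 lower of 22 with vehicle (90.9%). Of 14 tetraspanins 7 were higher and 3 lower with ox-LDL, and 6 higher and 4 lower with vehicle (71.4% in each), with Cd53 higher by 1.31 ± 0.22 and 1.32 ± 0.15 and Tspan3 lower, at -4.50 ± 0.25 and -4.04 ± 0.19.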

How the data were processed

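RNA was sequenced from 22 libraries in 4 groups, with 37330389 to 50257111 counts assigned to genes in each. Reads were processed with STAR 2.7.9a and featureCounts 2.0.3 on GRCm38, per the submitters' processing notes. The deposited tables give raw counts of 55487 Ensembl genes, with CPM, FPKM and TPM columns that the authors made from those counts, and 0 genes departed from that relation. The sources used here do not give the strand setting, the treatment of reads with several matches or the annotation release. Symbols were found for 55141 gene IDs. The members and the gene lists were chosen with earlier results of these data known.

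Counts were tested with edgeR 4.0.16 (R 4.3.3) by its quasi-likelihood test, with TMM factors, filterByExpr at a minimum count of 10 and Benjamini-Hochberg adjustment over all genes tested in each of 5 comparisons. Each fit held the groups compared, and the difference of the effects was fitted over all 4. Calls have an adjusted p under 0.05. Levels are FPKM from TMM-scaled library sizes and the deposited gene lengths. Shares of chains were compared by 2-sided exact permutation tests. Libraries that stand apart were found by principal components of genes other than the members. The fits were tested on simulated data. Alternatives were other scaling factors, DESeq2 1.42.0, no filter, 1 fit over all groups and each library left out, and, chosen after seeing the data, the fits without the libraries that stand apart or with their split as a covariate.

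By rule, values per library are given for members called with ox-LDL or, where none was called, the 3 with the lowest p, and for the 5 highest members in each cell type. Between cell types the 6 highest and 6 lowest fold changes among members at 1 FPKM or more are named, and in pathway lists up to 4 called genes or else the 2 highest in level. Genes named beyond this complete the count of a role. Promoter windows are from RefSeq (GRCm38.p6), and proteins were not used here. Results for some genes of the pathway and marker lists are not reported here.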

Additional observations from a re-analysis of the deposited data

Results flagged for a closer look

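Of 110 groups of member values examined, 7 held a library farther from the rest than Dixon's test allows at 95%, where chance alone gives about 1 in 20. Itga2b, the alpha chain of the platelet fibrinogen receptor, gave 3 of them. It stood at 0.435 FPKM in macrophage library H with ox-LDL (the others at 0.513 to 0.552 FPKM), at 3.05 FPKM in monocyte library 10 with ox-LDL (0.0433 to 0.483 FPKM) and at 1.14 FPKM in monocyte library 1 with vehicle (0.241 to 0.446 FPKM). Itgb3, its partner, was at 4.46 FPKM in the same monocyte library 10 (the others with ox-LDL at 0.265 to 1.03 FPKM). The platelet gene Gp5 was at 5.88 CPM in that library, the highest of the monocyte libraries with ox-LDL. The list of 11 platelet markers summed to 130.8 CPM in library 10 and 133.3 CPM in library 11, against 55.3 to 71.6 CPM in libraries 7, 8 and 9. Library 11 held 0.0787 FPKM of Itga2b and 0.862 FPKM of Itgb3. The part of platelet RNA in these values was not tested. Itgb2 stood at 424 FPKM in macrophage library I with ox-LDL (355 to 362 FPKM). Itga7 stood at 0.0891 FPKM in monocyte library 6 with vehicle (0.0162 to 0.0416 FPKM), and Itgb4 at 0.204 FPKM in monocyte library 7 with ox-LDL (0.0306 to 0.0581 FPKM).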

How the results depend on the processing

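With ox-LDL in macrophages, the count of members called higher, 0 in all libraries, was 1 with DESeq2, with no filter on low counts, without libraries C, D, I and J, and with the library split as a covariate, the 1 being Alcam each time. Members called lower, 2 in all libraries, were 1 without those 4 libraries and 4 with the covariate. Leaving out 1 library at a time gave 0 to 1 higher and 0 to 2 lower. Pecam1 ran from -1.28 to -0.97 on the log2 scale over 18 alternatives (adjusted p of 0.00132 to 0.136), F11r from -0.68 to -0.49 (adjusted p of 0.000277 to 0.0554) and Alcam from 0.37 to 0.65 (adjusted p of 0.00224 to 0.336). Itga9 was called with DESeq2 and with the covariate (adjusted p of 0.0328 and 0.0153), and Cd44 with total counts and with the covariate (0.0308 and 0.047). No member was called in monocytes or in the difference under any alternative run. Signs turned in 164 of 2826 refits of single members, and in 1 of these the member was called: Itga2b in macrophages against monocytes with ox-LDL was -0.60 in all libraries and 1.37 without monocyte library 10 (adjusted p = 0.0322), and the libraries left out in turn gave -0.93 to 1.37. Between cell types, leaving out 1 library gave 8 to 11 members higher and 11 to 12 lower with ox-LDL, and 9 to 11 higher and 10 to 14 lower with vehicle. Over all genes with ox-LDL in macrophages, 142 were higher and 200 lower, against 92 and 334 with total counts, 305 and 393 with DESeq2, 6 and 74 in 1 fit of 4 groups, and 309 and 498 with the covariate. In monocytes 4 and 0 became 88 and 63 with DESeq2, 150 and 109 in 1 fit, and 85 and 37 with the covariate. For the difference, 1 and 10 became 18 and 44 with DESeq2 and 85 and 44 without monocyte libraries 5, 6, 10 and 11. The cause was not tested. No scaling moved the median of all genes by over 0.1 on the log2 scale. No paired analysis was possible because the groups share no replicate numbers. Depth limits Itga2, Itga7 and Itgb6, which were too low to be tested in macrophages or between cell types.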
